A study of Homo sapiens with 14 samples.

Results

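In DLD-1 cells, a human line derived from a Dukes' type C colorectal adenocarcinoma, 2887 of the 15699 treated ChIP-seq intervals near gene starts lay directly against a control peak of the same antibody, with no base between and no base shared. These members were chosen by their positions alone: an interval of a treated list entered where the base after its last base was the first base of a control peak, or the base before its first base was the last base of one. They were 2651 of the 14047 activator STAT5 intervals (18.9%, 95% Clopper-Pearson interval 18.2 to 19.5) and 236 of the 1652 inhibitor BCL6 intervals (14.3%, 12.6 to 16.1). These 2 percentages are also the background share of contact for any group of intervals below. Without 1 of the 2 control libraries the counts were 1298 or 1681 for STAT5 and 122 or 152 for BCL6. Because contact chose the members, the counts, widths, sides and distances to control peaks are descriptions with no test.

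Activator cells carried the plasmid pEGFP-C1199Tiam1, which codes for a fragment of TIAM1, and received vehicle for 16 h. Inhibitor cells carried the same plasmid and received 20 microM EHT 1864, a RAC inhibitor, for 16 h. Control cells carried the empty vector, and chromatin was taken 20 h after transfection in each group. No time in vehicle is recorded for control cells, so whether they received vehicle is not known here. The lists came from 2 activator STAT5 libraries (antibody C-17) set against 2 control STAT5 libraries, and from 3 inhibitor BCL6 libraries (antibody N-3) set against 2 control BCL6 libraries. Both lists called control here carry a treated condition in their names, while their columns are named for control libraries; the columns were followed, and every control peak below rests on that reading. Activator cells differ from control cells by the plasmid and possibly by the vehicle. Inhibitor cells differ from control cells by both the plasmid and the drug. Whether libraries of a group came from separate cultures is not in the labels, and their spread may be technical. The other 5 libraries of the 14 were not analysed here.

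STAT5 switches genes on downstream of cytokine receptors, while BCL6 is best known as a repressor, and the DNA sequences these transcription factors bind are alike. RAC1 is a small GTPase that is switched on by exchange factors such as TIAM1 and acts through PAK kinases on the cytoskeleton and on gene expression. The series asks, by its title, which genes follow a BCL6/STAT5 switch under RAC1/PAK1 signalling, with the DNA damage response as its subject. A control peak that ends where a treated interval begins shows only that the neighbouring bases were listed in control cells. No treated interval shared a base with such a peak, so the treated signal over those bases is not seen in these lists.

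Each interval has 1 whole-number value per library, which the file header does not name; every value was 0 or at least 2, and it is called the value below. A treated interval had a value of at least 2 in every treated library, whereas a control peak had one in at least 1 of its 2 libraries, so treated and control values are not compared in size. Library depths are not known here. The end of each interval at lower coordinates lay from 3000 bp upstream to 1000 bp downstream of an Ensembl gene start. Some intervals ran past these limits, such as one near ARID4B from -3105 to -2924 bp. Contact with a control peak farther out was not seen. Coordinates are of GRCh37 unless another build is named.

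Several touching intervals lay at or near the start of a gene, and RefSeq promoter sequences of 4 such genes are printed. MDM4 encodes an inhibitor of p53, PPM1D a phosphatase that ends damage signalling, POLK a translesion DNA polymerase and KLF7 a transcription factor of the Krüppel-like family. The sequences are RefSeq's, on GRCh38.p14, from 250 bases before to 50 after the gene start, read 5′ to 3′ on the gene's strand. They were not aligned to the GRCh37 intervals, whose positions are counted from Ensembl gene starts. A printed window may therefore lie away from the interval of its gene. Capitals mark TTCNNNGAA, the palindromic core that STAT proteins are known to bind, which reads the same on both strands. The windows are chr1:204516156-204516455 (plus strand) for MDM4, chr17:60599943-60600242 (plus strand) for PPM1D, chr5:75511641-75511940 (plus strand) for POLK and chr2:207165899-207166198 (minus strand) for KLF7.
MDM4: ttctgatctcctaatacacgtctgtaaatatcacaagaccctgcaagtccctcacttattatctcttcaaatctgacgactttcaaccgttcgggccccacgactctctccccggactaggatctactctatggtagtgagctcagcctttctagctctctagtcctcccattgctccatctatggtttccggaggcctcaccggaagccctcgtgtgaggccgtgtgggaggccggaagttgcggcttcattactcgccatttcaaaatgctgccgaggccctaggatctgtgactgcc
PPM1D: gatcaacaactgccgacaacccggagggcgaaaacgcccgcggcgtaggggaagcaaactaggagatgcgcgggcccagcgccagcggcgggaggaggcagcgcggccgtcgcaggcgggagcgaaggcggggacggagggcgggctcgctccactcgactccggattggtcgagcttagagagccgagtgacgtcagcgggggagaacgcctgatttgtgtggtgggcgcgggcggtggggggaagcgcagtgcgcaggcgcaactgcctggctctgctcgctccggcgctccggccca
POLK: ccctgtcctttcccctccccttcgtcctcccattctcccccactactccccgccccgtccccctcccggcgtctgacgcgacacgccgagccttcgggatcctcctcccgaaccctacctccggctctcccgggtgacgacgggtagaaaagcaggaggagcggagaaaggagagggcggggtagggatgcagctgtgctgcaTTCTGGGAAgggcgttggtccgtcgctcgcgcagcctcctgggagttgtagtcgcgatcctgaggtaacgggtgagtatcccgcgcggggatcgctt
KLF7: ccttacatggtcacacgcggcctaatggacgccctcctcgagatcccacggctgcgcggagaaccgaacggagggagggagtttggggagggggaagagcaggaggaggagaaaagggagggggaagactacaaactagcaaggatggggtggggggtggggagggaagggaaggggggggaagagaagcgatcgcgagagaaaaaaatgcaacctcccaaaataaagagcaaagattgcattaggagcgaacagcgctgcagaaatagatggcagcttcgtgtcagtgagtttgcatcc

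The MDM4 interval of 52 bp spanned the gene start, from -5 to 46 bp, and its values in activator STAT5 were 2 and 5. Its control STAT5 peak lay on the side of higher coordinates, had values of 0 and 2, and gave a joined width of 347 bp. The touching PPM1D interval ran from -283 to -84 bp with values of 2 and 2, beside a control peak with 2 and 0. Its joined width was 458 bp. Another PPM1D interval, without contact, had 4 and 2. POLK held the widest touching interval, 495 bp from -675 to -181 bp, with values of 5 and 11 beside a control peak with 0 and 2. The KLF7 interval was inhibitor BCL6, 64 bp from -97 to -34 bp, with values of 3, 2 and 3 beside a control BCL6 peak with 2 and 0. The value was therefore present in only 1 of the 2 control libraries at each of these 4 control peaks. That is the usual case, since 10.9% of touched control STAT5 peaks and 13.5% of touched control BCL6 peaks had it in both.

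Of the 4 promoters, the POLK window held TTCNNNGAA, as TTCTGGGAA starting at -47 bp from the RefSeq start. The POLK interval, at -675 to -181 bp, is counted from the Ensembl start, so whether it holds the motif was not checked. Touching activator STAT5 intervals reached into the same window at 179 gene symbols, of which 101 had a promoter in the table and 8 of these held the motif (7.92%). Touching inhibitor BCL6 intervals did so at 13 symbols, 9 with a promoter, 1 with the motif (11.1%). Over all 27305 promoters of the table, 2152 held it (7.88%). A match describes letters only. The window also covers bases outside the interval, and its RefSeq start may differ from the Ensembl start used for the interval.

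Contact was a sharp class of position, not the low end of a smooth run of distances. Among activator STAT5 intervals, 2651 were at a gap of 0 bp, 17 at a gap of 1 bp and 146 at gaps of 1 to 10 bp from the nearest control STAT5 peak. Among inhibitor BCL6 intervals, 236 were at 0 bp, 4 at 1 bp and 22 at 1 to 10 bp. No interval of either treated list shared a base with a control peak of its own antibody. The control peaks of the other antibody, which the rule did not use, had no such excess: 8 activator STAT5 intervals lay directly beside a control BCL6 peak and 1 inhibitor BCL6 interval directly beside a control STAT5 peak.

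**Figure D1:**
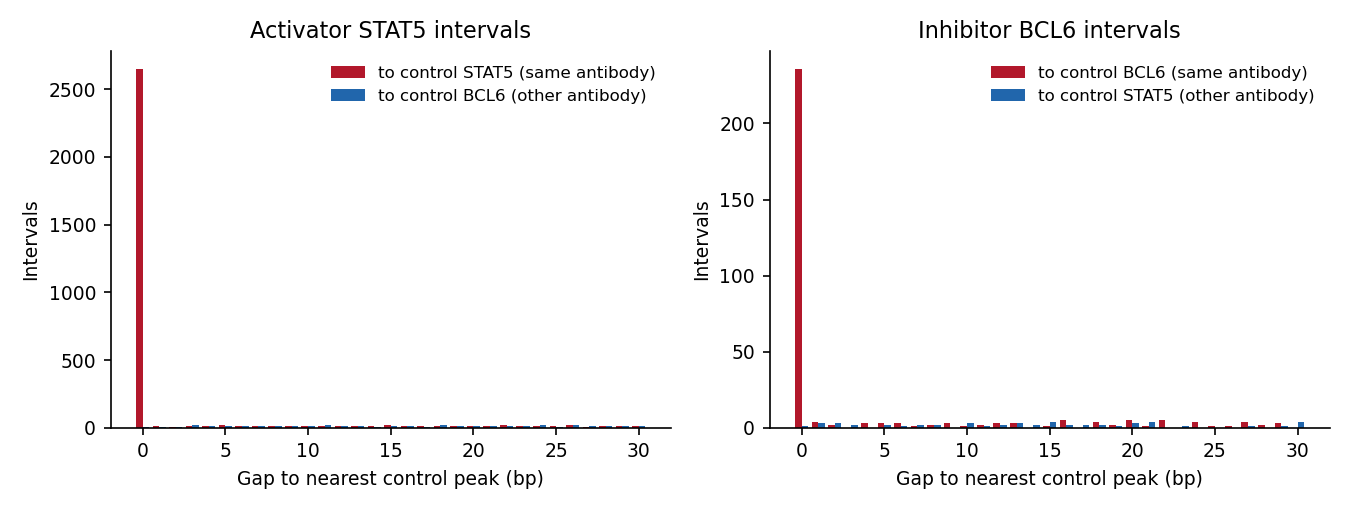
Number of treated intervals (vertical axis) against the gap in bp to the nearest control peak (horizontal axis), for activator STAT5 and inhibitor BCL6 intervals; red bars are control peaks of the same antibody and blue bars those of the other. The red bar at a gap of 0 bp holds 2651 activator STAT5 and 236 inhibitor BCL6 intervals, and a gap of 1 bp holds 17 and 4.

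The intervals just outside the rule are given for description. At gaps of 1 to 10 bp, an interval near FANK1 (gap 9 bp) had 6 and 12, one near PHC2, a Polycomb subunit (gap 4 bp), had 6 and 5, and one near the microRNA gene MIR214 (gap 1 bp) had 4 and 4. For BCL6, an interval of 289 bp at chromosome 2, 47124956 to 47125244 (gap 1 bp) had 6, 4 and 6, and one near TUT1, a terminal uridylyltransferase (gap 1 bp), had 3, 2 and 2. Just inside the rule, a second interval near FANK1 had 15 and 8 beside a control peak with 3 and 4.

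Contact occurred on both sides. Among touching activator STAT5 intervals, 1361 had their control peak at higher coordinates, 1171 at lower coordinates and 119 on each side. Among touching inhibitor BCL6 intervals the numbers were 120, 105 and 11. Read along the nearest gene, the control peak of activator STAT5 intervals with 1 such peak was upstream in 1274 and downstream in 1258, and that of inhibitor BCL6 intervals was upstream in 115 and downstream in 110. The upstream side made up 50.3% (48.3 to 52.3) and 51.1% (44.4 to 57.8). By coordinate, higher positions were the more frequent side in both antibodies.

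Touching intervals were narrow. The median width was 89 bp (interquartile range 41 to 153, range 1 to 495) for touching activator STAT5 intervals, against 157 bp (76 to 239, range 1 to 596) for the other activator STAT5 intervals. For inhibitor BCL6 it was 64 bp (range 1 to 271) in touching and 89 bp (range 1 to 358) in other intervals. Widths of 1 to 20 bp made up 347 touching activator STAT5 intervals (13.1%) and 772 others (6.77%), but 26 touching inhibitor BCL6 intervals (11.0%) and 175 others (12.4%). By width class, the share of activator STAT5 intervals that touched was 31.0% at 1 to 20 bp, 29.8% at 21 to 50 bp, 25.4% at 51 to 100 bp, 20.3% at 101 to 200 bp and 7.03% at 201 to 600 bp.

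A joined region holds a whole control peak, so it is wider than that peak by construction. The median joined width was 419 bp (range 253 to 1406) for STAT5 and 395.5 bp (range 269 to 1617) for BCL6. With 1 control peak it was 412 bp for STAT5 and 389 bp for BCL6, and with one on each side 728 bp and 700 bp. The treated interval itself made up a median of 21.2% of the joined width for STAT5 and 15.3% for BCL6. It was wider than the control sequence it touched in 43 STAT5 members and 0 BCL6 members.

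**Figure D2:**
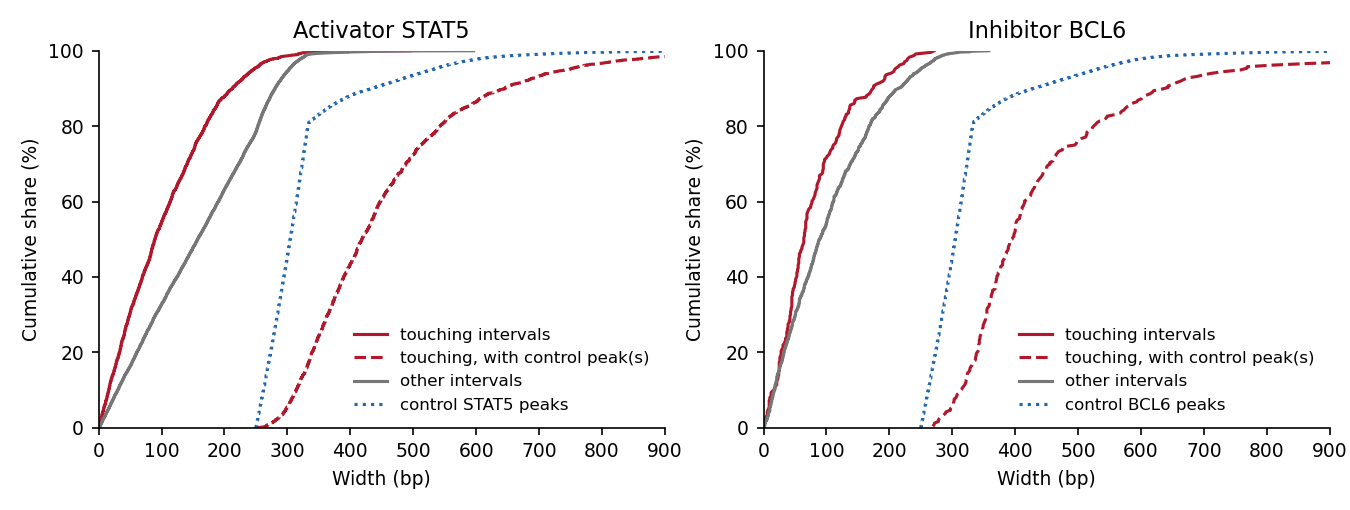
Cumulative share of intervals (percent, vertical axis) against width in bp (horizontal axis, which ends at 900 bp) for touching intervals, touching intervals joined with their control peaks, other intervals and all control peaks of each antibody. Touching intervals are narrower than the others, with medians of 89 against 157 bp for STAT5 and 64 against 89 bp for BCL6.

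Of the control peaks, 2707 of 68320 control STAT5 peaks (3.96%) and 245 of 68393 control BCL6 peaks (0.358%) were touched. Touched control STAT5 peaks had a median width of 306 bp, against 304 bp for the others, and touched control BCL6 peaks 315 bp, against 305 bp. A value above 0 in both control libraries, which the rule did not use, was found in 295 touched control STAT5 peaks (10.9%) and in 6086 others (9.28%). That difference passed the test (odds ratio 1.20, two-sided Fisher's exact test, adjusted p = 0.0206 over 4 tests). For control BCL6 the numbers were 33 touched peaks (13.5%) and 6254 others (9.18%), an odds ratio of 1.54 that missed the threshold (Fisher's exact test, adjusted p = 0.0522). Among control STAT5 peaks of 250 to 400 bp the shares were 3.45% in touched and 3.13% in other peaks, and the call was lost (odds ratio 1.11, Fisher's exact test, adjusted p = 0.483). Peaks are not replicates of a condition, so these p-values speak of these lists only.

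**Figure D3:**
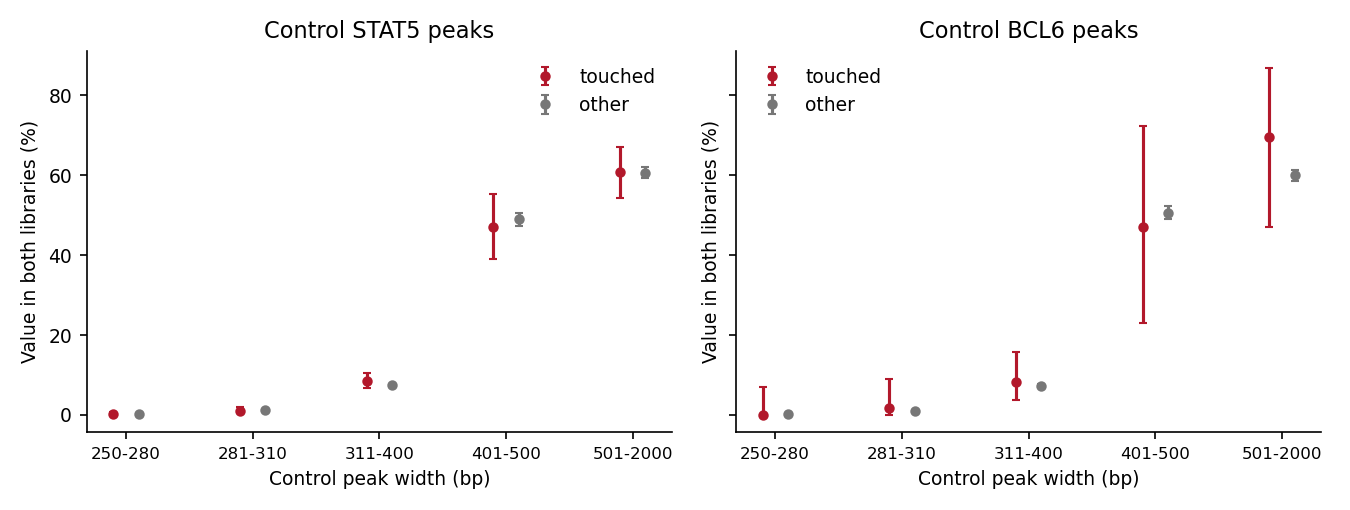
Share of control peaks with a value in both control libraries (percent, vertical axis) by control peak width in bp (horizontal axis), for touched and other control peaks of each antibody; bars are exact 95% intervals. The share climbs with width in both, and in the control STAT5 peaks of 501 bp or more it is 60.9% in touched and 60.7% in other peaks.

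Overlap with the control peaks of the other antibody was the second measure that the rule did not use directly. By rule, touching intervals lie against a control peak of their own antibody. The other activator STAT5 intervals had a median gap of 711 bp to the nearest one. How often control STAT5 and control BCL6 peaks coincide is not given here, so contact and nearness to control peaks cannot be told apart. Of the touching activator STAT5 intervals, 716 (27.0%) shared at least 1 bp with a control BCL6 peak, against 2877 of the 11396 others (25.2%), which missed the threshold (odds ratio 1.10, Fisher's exact test, adjusted p = 0.0851). A narrow interval has fewer bases with which to overlap, and among intervals of 50 to 200 bp the shares were 29.0% of touching and 23.3% of others (odds ratio 1.35, Fisher's exact test, adjusted p = 2.26e-05). In the widest class, 201 to 600 bp, the shares were 29.7% of touching and 30.6% of others, so the difference was not found at every width. Without the second control BCL6 library the whole list passed as well, at 15.2% of touching and 13.5% of others (odds ratio 1.15, Fisher's exact test, adjusted p = 0.0348), but without the first it did not, at 16.2% and 15.7% (odds ratio 1.04, Fisher's exact test, adjusted p = 0.662). For inhibitor BCL6, 57 touching intervals (24.2%) overlapped a control STAT5 peak, against 334 others (23.6%), a difference not detectable at these numbers (odds ratio 1.03, Fisher's exact test, adjusted p = 0.869).

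Values in the treated libraries were low in both classes, with higher means where the interval touched. They are given with no test. The highest values were in the other intervals. For activator STAT5 the maxima were 104 and 182 in others, against 15 and 25 in touching. For inhibitor BCL6 they were 30, 66 and 83 in others, against 15, 26 and 51 in touching. In the activator STAT5 libraries touching intervals averaged 2.80 and 3.38, against 2.65 and 3.09 for the others. In the inhibitor BCL6 libraries they averaged 2.89, 3.18 and 4.29, against 2.62, 2.72 and 3.20. A value of at least 3 in every treated library was found in 575 touching activator STAT5 intervals (21.7%, 20.1 to 23.3), against 1801 others (15.8%, 15.1 to 16.5). A few intervals carried much of the BCL6 difference: without those with a value of 20 or more in any library (6 touching and 5 others, a limit set after seeing the data), the means were 2.70, 2.83 and 3.46 in touching, against 2.56, 2.64 and 3.10 in others. A value of at least 3 throughout was found in 21 touching inhibitor BCL6 intervals (8.90%) and 79 others (5.58%). The value of 2 in every library made up 28.0% of touching and 36.9% of other activator STAT5 intervals.

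In activator STAT5 the difference in mean value was larger among wide intervals. At 1 to 20 bp, touching activator STAT5 intervals averaged 2.69 and 3.22, against 2.71 and 3.10 for others of that width; without values of 20 or more the means were 2.68 and 3.11, against 2.55 and 2.88. At 201 to 600 bp they averaged 3.15 and 4.02, against 2.73 and 3.25, and 34.8% of touching and 19.0% of other intervals had at least 3 in both libraries. Inhibitor BCL6 intervals of 101 to 200 bp averaged 3.29, 4.17 and 5.71 where they touched, against 2.54, 2.62 and 3.17 where they did not. Of these 52 touching intervals, 4 had a value of 20 or more. They lay near RNU2-42P and on both sides of a single control peak on chromosome 1. Without values of 20 or more the means were 2.65, 2.85 and 3.31, against 2.51, 2.58 and 3.14. The 15 touching inhibitor BCL6 intervals of 201 to 600 bp averaged 3.47, 2.87 and 4.40, against 2.97, 3.05 and 3.89 for the others, so the BCL6 means did not differ one way at every width.

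**Figure D4:**
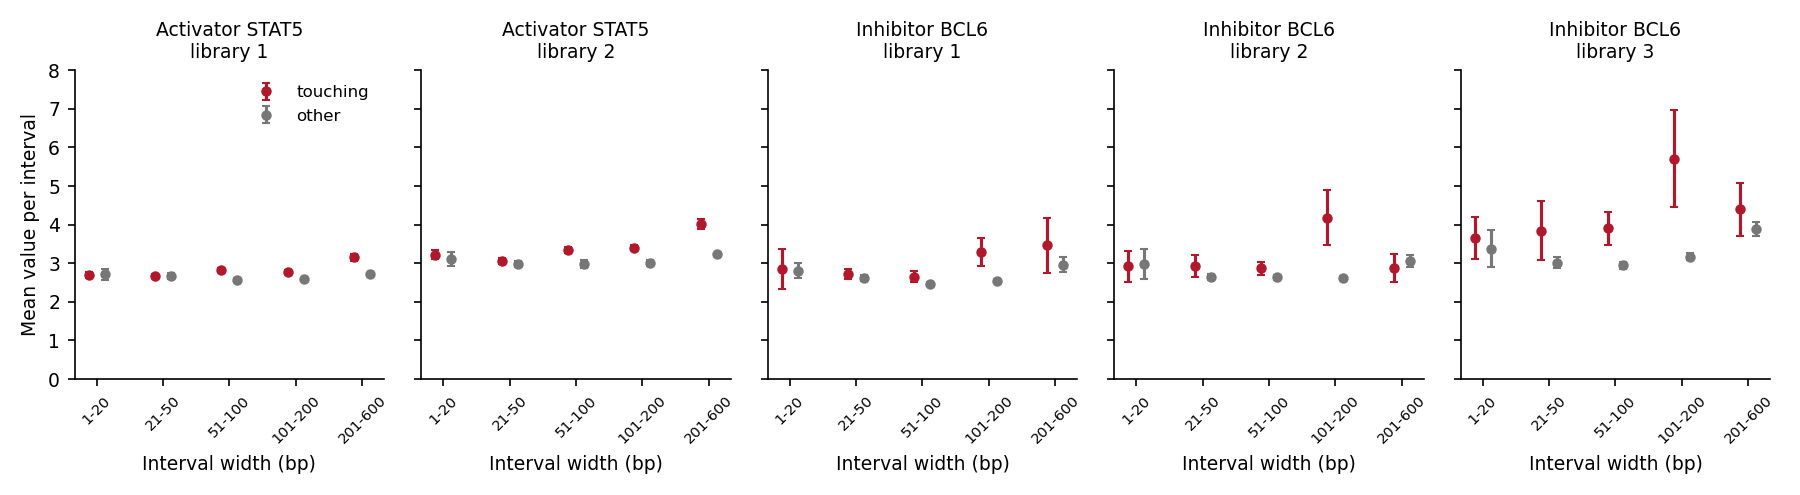
Mean value in each treated library (vertical axis) by width class of the interval in bp (horizontal axis), for touching and other intervals; bars are the standard error over intervals, which are not replicates of a condition. With all intervals kept, the classes meet at 1 to 20 bp in activator STAT5 (2.69 and 3.22 touching, 2.71 and 3.10 other). They part at 201 to 600 bp (3.15 and 4.02 touching, 2.73 and 3.25 other). Without values of 20 or more, the means at 1 to 20 bp were 2.68 and 3.11 touching, against 2.55 and 2.88 other.

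Some control peaks were touched on each side by a different treated interval. There were 63 such control STAT5 peaks and 2 such control BCL6 peaks, and the STAT5 regions from the outer end of one interval to that of the other had a median of 466 bp (range 274 to 787). The 2 flanking intervals had the same values in both activator libraries at 36 of the 63 peaks (57.1%, 44.0 to 69.5). Where both intervals of a pair had at least 3 in both libraries, 14 of 19 pairs were the same. Neighbouring activator STAT5 intervals 250 to 600 bp apart with no listed control STAT5 peak between them had the same values in 78 of 305 pairs (25.6%). Among such neighbours with at least 3 in both libraries, 3 of 22 pairs were the same.

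RAD51B, which encodes a protein of homologous recombination, was one of these loci. Intervals of 3 bp (chromosome 14, 68286992 to 68286994) and 186 bp (68287312 to 68287497) each had 5 and 8, on the 2 sides of a control peak with 0 and 2. Near MAML1, a coactivator of Notch signalling, intervals of 107 and 64 bp each had 6 and 8, on the sides of a control peak with 0 and 4. The highest such pair lay on chromosome 16, at 33959202 to 33959265 and at 33959549 to 33959550, and each interval had 10 and 25 beside a control peak with 0 and 4. In BCL6, intervals at chromosome 1, 144988796 to 144988988 and 144989318 to 144989461, each had 10, 26 and 32 around a control peak with 0 and 3.

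Among the touching intervals with the highest values were several near small RNA genes and pseudogenes. An activator STAT5 interval of 1 bp at chromosome 11, 62609438, lay 157 bp upstream of the U2 spliceosomal RNA gene RNU2-2 and had 8 and 10 beside a control peak with 2 and 10. Inhibitor BCL6 intervals near the U2 pseudogene RNU2-42P had 14, 17 and 51 in one and 10, 11 and 23 in another. A BCL6 interval of 2 bp near the pseudogene DUX4L50 had 15, 12 and 14, against 3 and 7 in its control peak. Such genes have near-identical copies, so where their reads belong is uncertain. The widest joined regions were 1406 bp near RNU6ATAC25P, a minor spliceosomal RNA pseudogene, for STAT5, and 1617 bp at chromosome 1, 144989318, for BCL6.

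By gene, 1736 of the 7669 symbols of the activator STAT5 list had at least 1 touching interval (22.6%), and at 1222 all intervals touched (15.9%). In the inhibitor BCL6 list the numbers were 136 of 964 symbols (14.1%) and 126 (13.1%). A touching interval with no gene symbol occurred 947 times for STAT5 and 99 times for BCL6. Over 16 lists of 402 genes, 126 had an activator STAT5 interval; 34 of them had a touching one (27.0%, against 22.6% of all symbols), and at 19 all intervals touched (15.1%, against 15.9%). Of the 17 list genes with an inhibitor BCL6 interval, 1 had a touching one (5.88%, against 14.1% of all symbols). These shares of all symbols, 22.6% and 14.1%, are the background for each list below, and no list was tested against them.

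**Figure D5:**
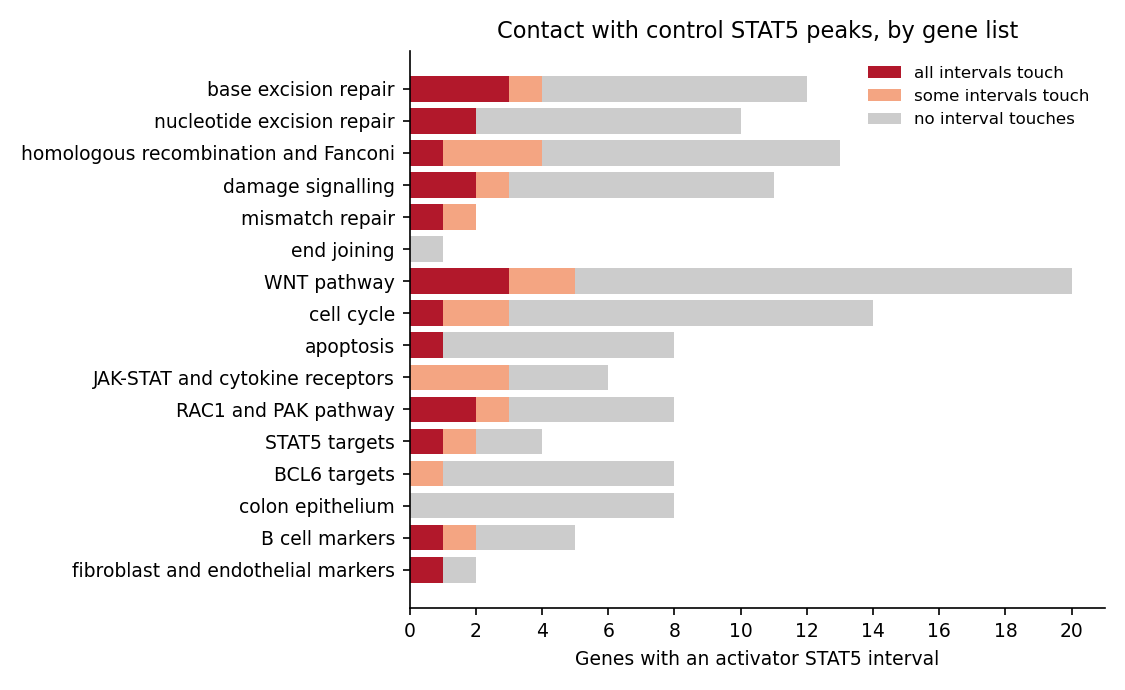
Number of genes of each list (horizontal axis) with an activator STAT5 interval, divided by whether all, some or none of their intervals touch a control STAT5 peak. Of 12 base excision repair genes 3 touch at all intervals and 1 at some; of 20 WNT genes the numbers are 3 and 2.

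Base excision repair mends damaged single bases and single-strand breaks. Of its 12 genes in the activator STAT5 list, 4 had a touching interval (33.3%, against 22.6% of all symbols). At APTX, MPG and XRCC1 no interval was free of contact. XRCC1, the scaffold on which the ligation step is assembled, had values of 2 and 6 in an interval of 92 bp, beside a control peak with 2 and 0. APTX, which repairs aborted ligation ends, had 2 and 5 between a control peak with 4 and 0 and another with 0 and 5, a joined width of 979 bp. MPG, a glycosylase for alkylated bases, had 2 and 3 between control peaks with 0 and 2 and with 2 and 0. TDP1, which frees stalled topoisomerase I, had 2 and 2 in its touching interval, and 2 and 4 in one and 2 and 2 in another that did not touch. TDG, the thymine glycosylase, was the list gene of BCL6: its interval of 67 bp (chromosome 12, 104359266 to 104359332) had 2, 2 and 2 beside a control BCL6 peak with 3 and 0.

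Nucleotide excision repair removes bulky lesions. Of its 10 genes in the activator STAT5 list, 2 had a touching interval (20%, against 22.6% of all symbols). RAD23B, a partner of the damage sensor XPC, had 2 and 2 in an interval of 23 bp beside a control peak with 0 and 4, and the joined width was 401 bp.

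Homologous recombination repairs double-strand breaks from a sister copy. Of 13 such genes in the list, 4 had a touching interval (30.8%, against 22.6% of all symbols). BLM, a helicase that dissolves recombination intermediates, had 2 and 2 in its touching interval, and RAD54B, a translocase, also 2 and 2; both genes had other intervals without contact. Of 11 damage signalling genes, MDM4, PPM1D and RPA1 had one (27.3%, against 22.6% of all symbols). RPA1, a subunit of the protein that coats single-stranded DNA, had an interval of 18 bp with 2 and 7, beside a control peak with 0 and 2. The 1 non-homologous end joining gene in the list had no touching interval.

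Outside repair, a touching interval was found at 25% of WNT pathway genes and 21.4% of cell cycle genes, against 22.6% of all symbols. Of 20 WNT genes, FZD3, FZD4 and FZD8, receptors for WNT ligands, touched at all intervals, and FZD6 and GSK3A, a kinase that marks beta-catenin for destruction, at some. FZD4 had 5 and 3 in 257 bp beside a control peak with 3 and 0, and GSK3A had 3 and 4 beside one with 0 and 2. Of 14 cell cycle genes 3 had a touching interval. CDK1, the mitotic kinase, had 3 and 2 in 186 bp between control peaks with 0 and 2 and with 0 and 3. CDKN1B, an inhibitor of cyclin-dependent kinases, had 2 and 2 in its touching interval and 2 and 2 in another at a gap of 303 bp. E2F5, a repressive E2F factor, had 2 and 2 in its touching interval and 3 and 4 in another without contact.

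Of 6 JAK-STAT genes, IL6ST, LIFR and SOCS5 had a touching interval (50%, against 22.6% of all symbols). Each also had at least 1 that did not touch. IL6ST, the receptor chain shared by cytokines of the interleukin-6 family, had 2 and 10 in 163 bp beside a control peak with 3 and 0. SOCS5, a suppressor of cytokine signalling, had 2 and 9 beside a control peak with 2 and 4. Of 8 RAC1 and PAK pathway genes, 3 had a touching interval (37.5%, against 22.6% of all symbols). LIMK2, a kinase that acts on cofilin, had 2 and 5 in 15 bp. CYFIP2 and WASF1, parts of the actin-regulating WAVE complex, had 2 and 2 each in the touching interval. WASF1 had 6 and 2 in another interval without contact. Of 4 genes known as STAT5 targets, ID1 and CDKN1B had a touching interval (50%, against 22.6% of all symbols). ID1, an inhibitor of differentiation factors, had 2 and 4 beside a control peak with 0 and 3. CDKN1B had the values given, and was also the sole touching gene among 8 BCL6 target genes (12.5%).

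Of 8 apoptosis genes, BCL2L2, a survival factor, had 2 and 3 in its touching interval (12.5%, against 22.6% of all symbols). None of the 8 colon epithelium genes in the list had one (0%, against 22.6% of all symbols). The B cell genes MS4A1 and CR2 (2 of 5, 40%) and PDGFRB of the fibroblast and endothelial list (1 of 2, 50%) did. Their values were 2 and 4, 5 and 2, and 2 and 3. Lists this short carry little precision, and no contrast between them is drawn. An interval near a gene does not show that the gene is expressed, so no cell type was named from these.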

How the data were processed

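ChIP-seq intervals of STAT5 and BCL6 in DLD-1 cells were taken from 4 lists covering 9 of the 14 libraries. The submitters' processing notes name GRCh37, CASAVA 1.8.2 and Bowtie 0.12.7; tool roles, peak caller and calling threshold were not given in these sources. The authors' deposited lists give 1 whole-number score per interval and library, called the value, with no named quantity, and each interval's width and distance to an Ensembl gene start.

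Each distinct interval was counted once. Contact meant a gap of 0 bp. Members and lists were chosen with earlier results of these data known. Named genes were those of the 16 lists with a touching interval, the members with the highest lowest value or widest joined region, flanking pairs, and members just inside or outside contact; POLK and the 4 printed promoters were chosen after their values were seen. Some list genes are not reported here by name. Shares were compared with Fisher's exact tests (two-sided; 4 tests, adjusted by Benjamini-Hochberg, threshold 0.05). Clopper-Pearson intervals (95%) cover counting error only. Of 26333 symbols, 26166 matched RefSeq. Contact and overlap functions were tested on simulated data. Python 3.11.15, pandas 2.3.3, NumPy 2.4.6, SciPy 1.17.1 and Matplotlib 3.10.9 were used.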

Additional observations from a re-analysis of the deposited data

How the results depend on the processing

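The count of touching intervals depended on how contact and peaks were defined. Gaps of up to 10 or 50 bp, a minimum width of 20 bp and leaving out chromosome 2 (added after seeing the data) kept both counts within 1.5 times. Reading an interval's end as equal to a control start gave 0 and 0 (STAT5, BCL6), only control peaks with a value in both libraries 298 and 34, and treated values of at least 3 gave 575 and 21. Without 1 control library the counts were 1298 to 1681 and 122 to 152. For overlap of touching activator STAT5 intervals with control BCL6 peaks, the odds ratio passed the threshold at 1.20 with 50% of the interval required to overlap (Fisher's exact test, adjusted p = 0.00414), at 1.35 for 50 to 200 bp, and at 1.32 for that width without chromosome 2 (added after seeing the data); without 1 control BCL6 library it was 1.04 to 1.15. For inhibitor BCL6 on control STAT5 peaks it turned below 1, without passing, at 0.810 (values of at least 3), 0.942 (chromosome 2 left out) and 0.806 (50 to 200 bp without chromosome 2, added); without 1 control STAT5 library it was 1.12 to 1.14. Touched control STAT5 peaks fell short at 1.11 among peaks of 250 to 400 bp, and touched control BCL6 peaks passed at 1.54 with gaps of up to 10 bp (Fisher's exact test, adjusted p = 0.0384). The cause was not tested. Leaving out a treated library could not be recomputed, because every listed treated interval has a value in every treated library. No paired analysis was possible because the tests run over intervals, and the labels number each library of the series once. Depth per library is not given, and most values are the lowest possible, so a single interval carries little precision.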

Other observations

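Touching intervals of both antibodies shared 21 gene symbols, which are 1.21% of the 1736 STAT5 symbols and 15.4% of the 136 BCL6 symbols. How many of all 964 inhibitor BCL6 symbols have a touching activator STAT5 interval was not measured. The 21 symbols therefore have no background and are a description only. At 4 of them, TMEM216, LINC00486, ANTXR1 and AHRR, a touching BCL6 interval overlapped a touching STAT5 interval. Near ANTXR1, an anthrax toxin receptor, the inhibitor BCL6 interval had 2, 2 and 2 and the activator STAT5 interval 4 and 6. Of the others, DTL and RARG are given here, chosen after their values were seen. DTL, a substrate receptor of an E3 ubiquitin ligase used in replication and damage responses, had a BCL6 interval with 4, 2 and 5 and STAT5 intervals of 4 bp with 3 and 4 and of 22 bp with 2 and 2, at other positions. RARG, a retinoic acid receptor, had 4, 2 and 3 for BCL6 and 2 and 4, and 2 and 6, for STAT5.

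Contact was more frequent in 1 stretch of chromosome 2. Between 30 and 75 Mb, 192 of 628 activator STAT5 intervals touched (30.6%, 27.0 to 34.3), against 2459 of 13419 elsewhere (18.3%, 17.7 to 19.0). For inhibitor BCL6 the numbers were 40 of 153 (26.1%) and 196 of 1499 (13.1%). By chromosome the activator STAT5 share ran from 6.25% on chromosome X (6 of 96) to 23.5% on chromosome 11 (219 of 930). The stretch was chosen after its values were seen, and what sets it apart was not tested.

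The median distance to the gene start was 960 bp in touching and 959 bp in other activator STAT5 intervals, and 987.5 bp and 1062.5 bp in inhibitor BCL6. A gene start lay inside 71 touching activator STAT5 intervals (2.68%), against 444 others (3.90%), and inside 8 touching inhibitor BCL6 intervals (3.39%), against 34 others (2.40%).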
